A study of Mus musculus with 26 samples.

Results

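Expression of the Notch receptors Notch1, Notch2, Notch3 and Notch4, the Notch ligands Jag1, Jag2, Dll1 and Dll4, and the Notch target genes Hes1 and Hey1 was examined in 4T1 cells with and without MaTAR25. These 10 genes of the 45318 counted were chosen by name, as the components at the core of the pathway. 4T1 is a triple-negative mammary carcinoma line of BALB/c mice, and MaTAR25 is a nuclear long noncoding RNA whose gene is annotated as 1200007C13Rik. The 9 RNA-seq libraries of polyadenylated RNA comprise 2 of Control cells, labelled wild type, 3 of the MaTAR25-/- line KO1 and 4 of the MaTAR25-/- line KO2. Control cells had received a guide RNA against Renilla luciferase, and the KO lines are clones grown from single sorted cells in which CRISPR/Cas9 removed the region around the transcription start site of MaTAR25. Each KO line is therefore 1 clone, and clone and genotype cannot be told apart within it. By the study's account Control cells were also grown as single-cell clones. A trait of a Control clone and an effect shared by KO1 and KO2 can therefore not be told apart either. No animals, drug treatments or time points enter these comparisons, and all libraries share the same growth medium. The labels do not state whether libraries of a group came from separate cultures, so p-values measure the spread between these libraries, which may be technical. MaTAR25 ChIRP-seq peak lists of 4T1 cells and of NDL mammary tumor cells of FVB mice served as a separate readout at the same genes. The labels give the NDL cells the genotype MMTV-PyMT, whereas the study describes them as MMTV-Neu-NDL cells. The study also lists the cells of this ChIRP-seq as cNeu, a name its methods give to a cultured line. Whether they were primary cells is therefore unclear.

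Notch signaling passes between cells that touch. A Jagged or Delta-like ligand on the surface of a cell binds a Notch receptor on its neighbor, the receptor is cut by ADAM proteases and then by gamma-secretase, and its freed intracellular part enters the nucleus, where it joins the DNA-binding protein RBPJ and a Mastermind co-activator. Genes of the Hes and Hey families, which encode transcriptional repressors, are the classical targets. In the mammary gland Notch signaling is known for its role in luminal cell fate, and Jag1 and Notch receptors are often studied in breast cancer.

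Libraries held 25367211 to 61110585 gene counts. MaTAR25 had 30 to 35 counts in the Control libraries and 0 to 11 in the KO libraries, and was lower in KO cells (log2 fold change -2.63, SE 0.83, adjusted p = 0.0561, edgeR quasi-likelihood test), a call that was lost without either Control library (adjusted p = 0.260 and 0.300). The 6 epithelial markers were detected in every library, with a summed level of 3719 to 3902 CPM (counts scaled to a common library size) in Control, 5053 to 7330 CPM in KO1 and 2194 to 4532 CPM in KO2. Of the 6 endothelial markers, Kdr and Emcn were at 0 in Control and Cdh5, Kdr, Tie1 and Emcn in KO1. Pdgfrb, Dcn, Lum and Thy1 were at 0 among the 6 fibroblast markers in KO1 and KO2, whereas Pdgfra had 11.7 to 46.9 CPM over all libraries. Col1a1 had 2.65 to 3.99 CPM in Control and 0.0842 to 0.995 CPM in the KO libraries. The fibroblast list summed to 11.8 to 47.6 CPM and the leukocyte list to 4.94 to 29.4 CPM over all libraries. In KO2 replicate 2 every gene appears on 3 lines with the same count, of which 1 was used. Over the genes tested, the Pearson correlation of log2 CPM was 0.991 between the Control libraries and 0.980 to 0.985 within KO1. Within KO2 it was 0.938 to 0.970, so KO2 libraries were less alike. KO2 replicates 2 and 3 (0.938) were less alike than KO2 replicate 3 and KO1 replicate 3 (0.954). The cause was not tested.

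Levels of different genes were compared as CPM per kilobase of exon. By the median over the 9 libraries Hes1 was highest at 15.0, followed by Notch2 at 11.3, Jag1 at 4.48, Dll1 at 3.71, Notch1 at 3.22, Dll4 at 2.70, Jag2 at 0.922, Notch3 at 0.307, Notch4 at 0.0617 and Hey1 at 0.0406 CPM per kb. Each of these genes overlapped its neighbor in this order when the ranges over the 9 libraries were compared. Notch2 made up 61.0 to 96.1% of the summed level per kb of the 4 receptors in every library, whereas the ligand with the highest level differed between groups. Notch4 and Hey1 were near the limit of detection, with at most 34 and 14 counts in a library. The plot of all 10 genes by library shows these values.

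**Figure D1:**
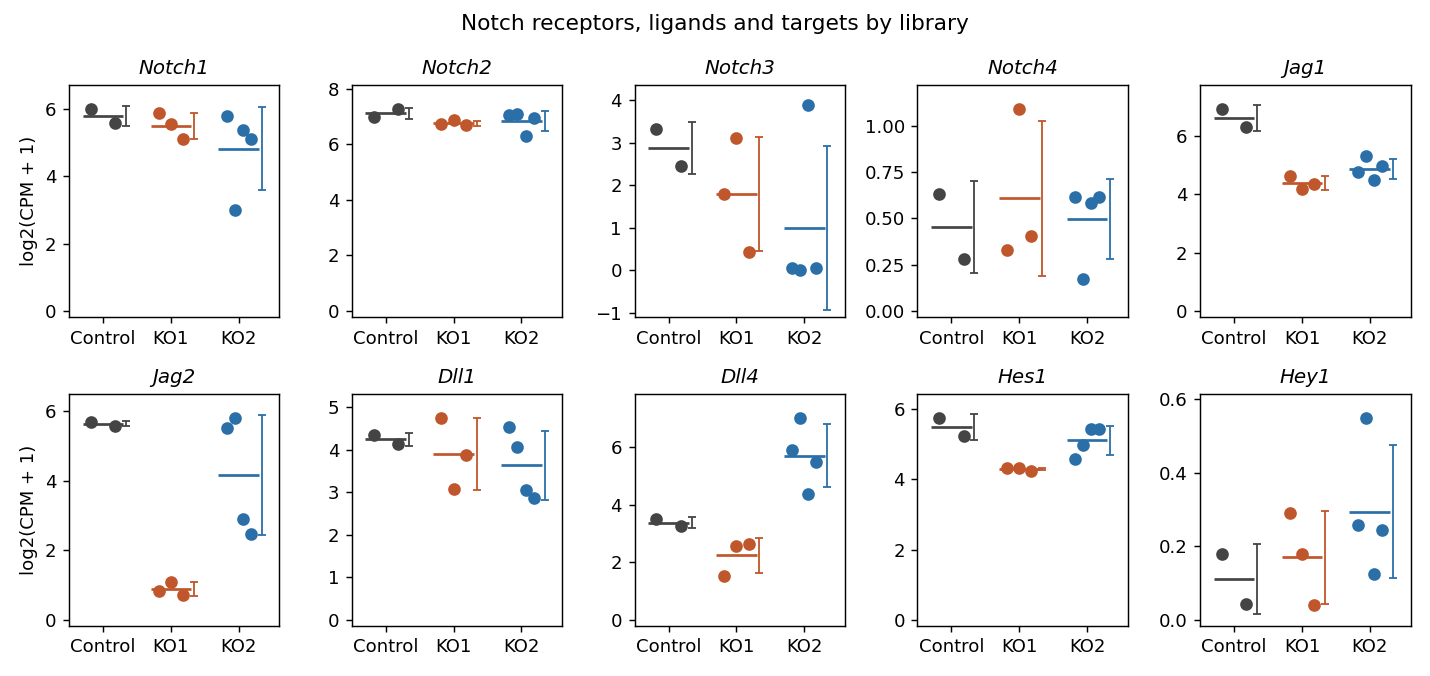
Level of each gene as log2(CPM + 1) in the 2 Control, 3 KO1 and 4 KO2 libraries. Points are libraries, horizontal lines are group means and bars beside them are 1 SD on this scale. All KO points of Jag1 lie below both Control points, KO1 points of Jag2 lie below all others, and the KO2 points of Dll4 lie above all others.

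Jag1, the Jagged ligand with the highest level in Control cells, was lower in both KO clones. The gene lies on the minus strand of chromosome 2 (GRCm38, chr2:137081456-137116644), and no other annotated gene overlaps it. The 250 bases before its outermost annotated start (chr2:137116645-137116894, minus strand) are shown because Jag1 differed from Control in each clone. Capitals mark GGTGG or its complement CCACC, the motif that the study relates to the MaTAR25 partner PURB, of which this window holds 1 copy.
Jag1 promoter: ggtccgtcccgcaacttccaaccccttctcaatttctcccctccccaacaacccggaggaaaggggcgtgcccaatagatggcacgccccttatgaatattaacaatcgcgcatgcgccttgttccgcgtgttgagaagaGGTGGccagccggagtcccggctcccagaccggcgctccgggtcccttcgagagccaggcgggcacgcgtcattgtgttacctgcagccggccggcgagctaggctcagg

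Jag1 measured 120.1 and 77.7 CPM in Control, 23.7, 17.0 and 19.5 CPM in KO1, and 26.1, 38.3, 21.5 and 30.1 CPM in KO2. All 7 KO libraries were below both Control libraries. With KO1 and KO2 as 1 group the log2 fold change was -1.97 (SE 0.27, adjusted p = 0.0024, edgeR quasi-likelihood test with Benjamini-Hochberg adjustment over all genes tested). Each clone alone gave a change of the same direction, -2.30 in KO1 (SE 0.28, adjusted p = 0.00109) and -1.77 in KO2 (SE 0.25, adjusted p = 0.0023, edgeR). KO1 and KO2 share the Control libraries, so these results are not independent. The two-sided exact permutation test on log2(CPM + 1) gave p = 0.0278 for KO against Control, the smallest that this design allows. Between the clones Jag1 differed by 0.53 on the log2 scale (SE 0.24, adjusted p = 0.173, edgeR), which does not pass the threshold of 0.1.

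Jag2, the second Jagged ligand, was nearly lost in KO1 and divided KO2. It measured 50.3 and 46.9 CPM in Control and 0.781, 1.13 and 0.622 CPM in KO1. In KO2, replicates 1 and 2 had 44.1 and 54.7 CPM, while replicates 3 and 4 had 6.42 and 4.54 CPM. KO1 did not overlap either of the other groups, and KO2 overlapped Control. Jag2 fell in KO1 (log2 fold change -5.86, SE 1.03, adjusted p = 0.0049, edgeR), and its value in KO2 was -0.83 (SE 0.82, adjusted p = 0.494, edgeR). KO2 was higher than KO1 by 5.03 on the log2 scale (SE 0.95, adjusted p = 0.0144, edgeR). Jag2 (minus strand, chr12:112907819-112929776) is overlapped by the microRNA gene Mir6941.

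Dll4, a Delta-like ligand best known from sprouting blood vessels, stood above Control in every KO2 library and below Control in every KO1 library. It lies on the plus strand of chromosome 2 (chr2:119325784-119335962), where Gm14207 overlaps it. The 250 bases before its start (chr2:119325534-119325783) are shown because Dll4 had the largest rise of the 10 genes over Control, and they hold 2 copies of GGTGG, in capitals.
Dll4 promoter: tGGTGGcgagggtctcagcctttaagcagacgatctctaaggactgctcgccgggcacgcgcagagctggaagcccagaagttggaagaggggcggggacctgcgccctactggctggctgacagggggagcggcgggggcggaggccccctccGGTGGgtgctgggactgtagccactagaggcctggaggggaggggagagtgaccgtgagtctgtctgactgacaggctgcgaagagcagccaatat

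Dll4 measured 10.4 and 8.48 CPM in Control, 1.90, 4.94 and 5.17 CPM in KO1, and 59.8, 129.5, 19.9 and 44.0 CPM in KO2. No 2 of the 3 groups overlapped, a description for which no share of all genes was computed. Dll4 rose in KO2 (log2 fold change 2.74, SE 0.72, adjusted p = 0.0243, edgeR), but the call was lost without Control replicate 1 or 2 (adjusted p = 0.150 and 0.177), and without KO2 replicate 2 the change was 2.12. In KO1 the value was -1.25 (SE 0.66, adjusted p = 0.200, edgeR), which does not pass. The difference of KO2 from KO1 was 3.99 (SE 0.65, adjusted p = 0.0087, edgeR), and 3.38 without KO2 replicate 2. In the exact permutation test on log2(CPM + 1) this difference had p = 0.0286, the smallest possible with these groups. With both clones pooled, Dll4 was not called (log2 fold change 2.003, SE 1.43, adjusted p = 0.371, edgeR).

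Of the endothelial markers, Cdh5 was also at a higher level in KO2, and Tie1 in replicates 1 and 2 of KO2. The summed level of the list was 0.275 to 0.329 CPM in Control, 0.0995 to 0.243 CPM in KO1 and 0.384 to 2.57 CPM in KO2. Cdh5, which encodes VE-cadherin, had 25, 33, 4 and 33 counts in KO2 against 0 to 1 in Control and 0 in KO1. The receptor kinase gene Tie1 had 36, 19, 1 and 2 counts in KO2, 4 and 0 in Control and 0 in KO1. Pecam1 (0.0439 and 0.214 CPM in Control, 0.123 to 0.279 CPM in KO2) and Tek (0.176 and 0.0610 CPM in Control, 0.0678 to 0.164 CPM in KO2) overlapped between these groups. The defining markers Kdr and Emcn had at most 1 and 2 counts in any library. The part of these transcripts in the Dll4 result was not tested. In bulk RNA, a change in the number of cells that express a gene and a change in RNA per cell cannot be told apart.

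Dll1, the other Delta-like ligand (minus strand, chr17:15367354-15376872, overlapped by A930024N18Rik), was not called in any of the 4 comparisons. Its levels were 19.4 and 16.5 CPM in Control, 25.9, 7.40 and 13.8 CPM in KO1, and 22.3, 15.7, 7.26 and 6.32 CPM in KO2, and the 3 groups overlapped. The log2 fold change of KO against Control was -0.35 (SE 0.52, adjusted p = 0.683, edgeR).

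The summed level of the 4 ligands per kb was 26.2 to 35.1 in Control, 6.11 to 10.8 in KO1 and 11.5 to 51.8 in KO2. In Control, Jag1 gave 50.9 to 58.7% of this sum and Jag2 20.6 to 25.7%. In KO1, Dll1 and Jag1 together gave most of a much smaller sum, with Jag2 at 1.04 to 2.65%. In KO2, Dll4 alone gave 44.9 to 64.9%, against 7.67 to 8.41% in Control. These shares describe transcript levels and are given without a test.

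**Figure D2:**
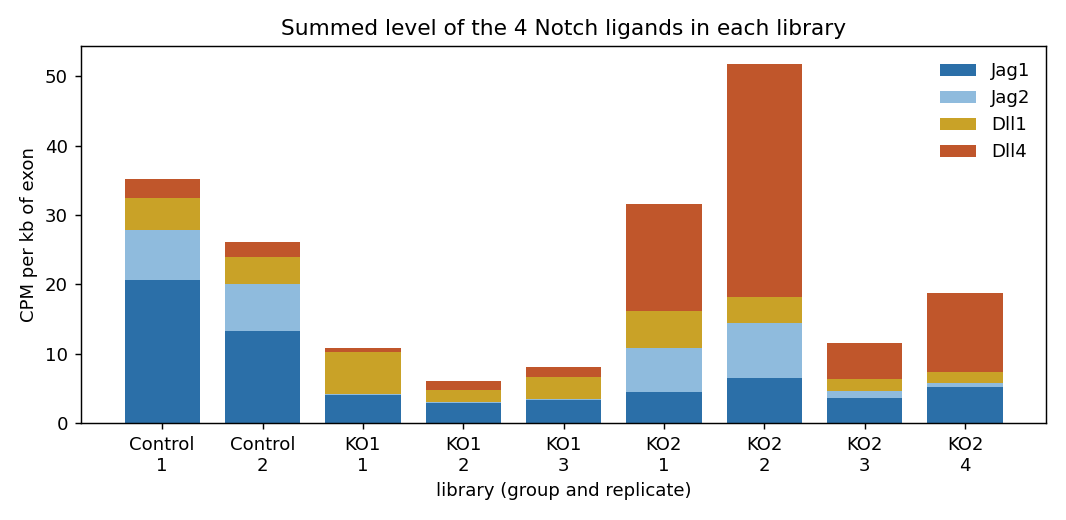
Stacked bars give the level of Jag1, Jag2, Dll1 and Dll4 in CPM per kb of exon in each of the 9 libraries, on a linear axis from 0. Bars of KO1 reach 6.11 to 10.8, below all others, and Dll4 is the tallest segment in every KO2 bar.

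None of the 4 receptors was called in any of the 4 comparisons by edgeR. None had an unadjusted p below 0.05 in these fits, and DESeq2 called 0. Notch2, the receptor with the most transcript (plus strand, chr3:98013527-98150361), measured 125 and 153 CPM in Control, 105, 115 and 101 CPM in KO1, and 132, 135, 78.2 and 122 CPM in KO2. All KO1 libraries were below both Control libraries, while KO2 overlapped them. Its log2 fold change was -0.38 in KO1 (SE 0.23, adjusted p = 0.254, edgeR) and -0.25 in KO2 (SE 0.21, adjusted p = 0.419, edgeR).

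Notch1 (minus strand, chr2:26457903-26516663) measured 63.2 and 46.9 CPM in Control and 58.0, 45.8 and 33.6 CPM in KO1. In KO2 it had 54.4, 40.6 and 33.9 CPM in replicates 1, 3 and 4 but 7.08 CPM in replicate 2. This library also had the lowest summed epithelial markers, 2194 CPM, and the highest Dll4, and the part of its composition in the Notch1 value was not tested. The log2 fold change of all KO libraries was -0.49 (SE 0.53, adjusted p = 0.565, edgeR).

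Notch3 (minus strand, chr17:32120820-32166852) varied widely within groups. Its counts were 407 and 146 in Control, 156, 232 and 13 in KO1, and 1, 0, 613 and 2 in KO2. Replicate 3 of KO2 thus had the highest level of all libraries, 13.9 CPM, and the other KO2 libraries the lowest, at most 0.0409 CPM. The 0 in KO2 replicate 2 allows up to 3 counts. With all libraries the log2 fold change in KO2 was -0.93 (SE 1.94, adjusted p = 0.759, edgeR). Without KO2 replicate 3 it was -7.80 (adjusted p = 0.0050, edgeR), so this library decides whether Notch3 is called in KO2. Of the leukocyte markers, Ptprc had 40 counts in this library and 0 to 15 in the others, and the part of this difference was not tested.

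Notch4, known chiefly from endothelium (plus strand, chr17:34564268-34588503), had 7 to 25 counts in Control, 12 to 34 in KO1 and 3 to 26 in KO2, at most 1.13 CPM. All 3 groups overlapped, and a difference was not detectable at this depth (log2 fold change of KO against Control 0.33, SE 0.71, adjusted p = 0.787, edgeR). Annotated genes overlap each receptor, among them Gm17276 on the opposite strand of Notch3 and the pseudogene Gm20462 at Notch4. The counting was not stated to use strand, so reads of such pairs cannot be told apart.

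Hes1, the repressor that serves as the usual readout of Notch activity, was lower in KO1. It lies on the plus strand of chromosome 16 (chr16:30064384-30067796) with no overlapping gene. Its level was 53.0 and 36.6 CPM in Control, 19.0, 19.0 and 18.04 CPM in KO1, and 23.1, 30.5, 42.5 and 42.4 CPM in KO2. The KO1 libraries lay close together below all others, and KO2 overlapped Control. Hes1 fell in KO1 (log2 fold change -1.26, SE 0.28, adjusted p = 0.0117, edgeR), although the call was lost without Control replicate 1 (adjusted p = 0.144). In KO2 the value was -0.37 (SE 0.26, adjusted p = 0.330, edgeR). KO2 was higher than KO1 by 0.89 (SE 0.24, adjusted p = 0.0437, edgeR), and this call was lost when KO1 replicate 1, 2 or 3 was left out (adjusted p = 0.123, 0.145 and 0.120).

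Hey1 (minus strand, chr3:8663359-8667256), the other target, had 1 to 6 counts in Control, 1 to 14 in KO1 and 4 to 11 in KO2. It did not pass the filter on low counts and was not tested, so 9 of the 10 genes entered the fits.

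Across the comparisons, 1 of the 9 tested genes was called between KO and Control, Jag1, which was lower. Of all 15023 genes tested 22.6% were called in this comparison, and 10.7% were called lower. Jag1 was also the only 1 of the 10 genes whose KO and Control libraries did not overlap, which held for 34.4% of all genes tested. No such share was computed for KO1 or KO2 alone or between the clones. Non-overlap in those comparisons is a description only, for these genes and for the other pathway genes. In KO1, 3 of 9 were called, all lower (Jag1, Jag2 and Hes1), beside 31.6% of all genes called and 15.7% called lower. In KO2, 2 of 9 were called, Jag1 lower and Dll4 higher, beside 31.4% of all genes. Between the clones 3 of 9 were called, all higher in KO2 (Jag2, Dll4 and Hes1), beside 19.6% of all genes called and 10.2% called higher. As shares of the 9 genes these counts were 11.1% between KO and Control, 33.3% in KO1, 22.2% in KO2 and 33.3% between the clones. The share in KO1 lay near the 31.6% of all genes, that in KO2 below 31.4% and that between the clones above 19.6%. For KO against Control, 11.1% lay below the 22.6% of all genes called and near the 10.7% called lower. The calls in KO1 and between the clones all went in 1 direction. The counts rest on 9 genes and were not tested against the shares of all genes. The median log2 fold change of the 9 genes was -0.49 in KO cells, -0.94 in KO1 and -0.48 in KO2. Over all genes tested it was 0.06, 0.02 and 0.03. With 9 genes each median is the value of 1 gene that was not called. These were Notch1 in KO cells, Notch3 in KO1 (SE 2.08) and Dll1 in KO2.

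**Figure D3:**
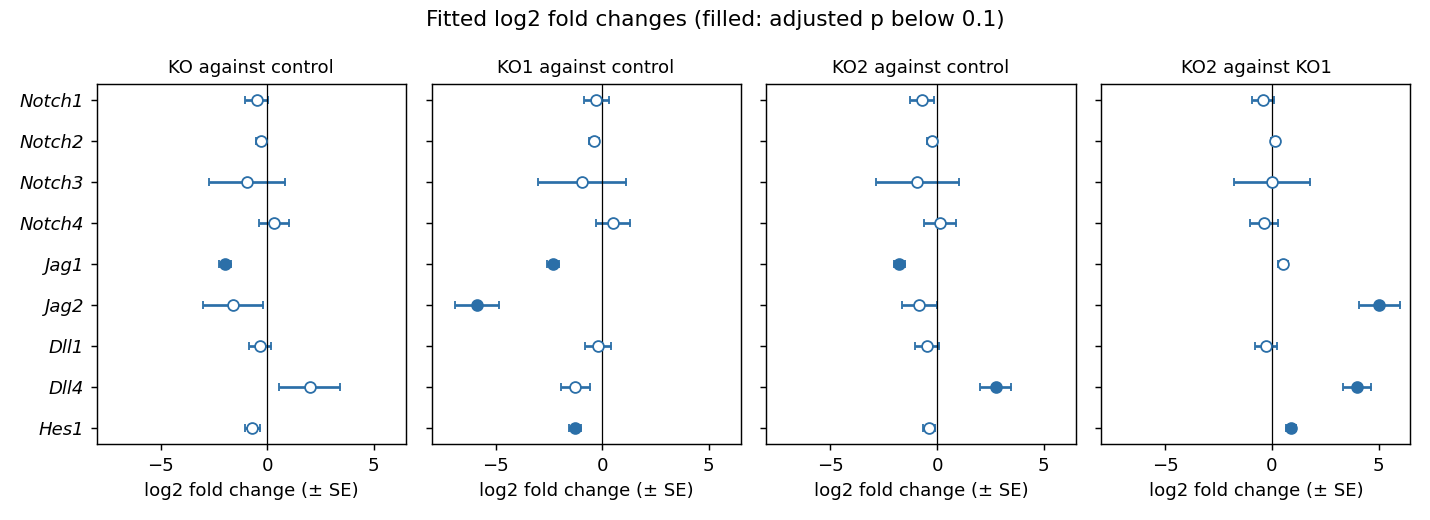
Log2 fold change with its standard error for the 9 tested genes in 4 comparisons, from the edgeR fits. Filled points have an adjusted p below 0.1. Jag1 is filled in the 3 comparisons with Control, Jag2 and Hes1 in KO1 and between the clones, and Dll4 in KO2 and between the clones.

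The gene whose pattern over the 9 libraries was most like that of each gene was sought among the 12028 tested genes that averaged 1 CPM or more, by the Pearson correlation of log2(CPM + 1). Jag1 was most like Masp2, which encodes a serine protease of the complement system (r = 0.987), and Masp2 had 6.41 to 12.8 CPM in Control, 0.597 to 1.24 in KO1 and 0.678 to 2.23 in KO2. Jag2 was most like Tmem245 (r = 0.995), Dll4 most like the histone-binding protein gene Rbbp4 (r = 0.978) and Hes1 most like the potassium channel gene Kcnk6 (r = 0.970). For Notch1 it was the homeobox gene Pbx2 (r = 0.969), for Notch2 the small GTPase gene Rap2b (r = 0.961), for Dll1 Gm26873 (r = 0.932) and for Notch3 the tetraspanin gene Tspan1 (r = 0.928). All values share the same 9 libraries and their 3 groups, and each is the highest of many, so they are a description only.

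Outside the core, 60 further genes of the pathway were listed by role, and 47 passed the filter on low counts. Between KO and Control 8 were called, 1 higher and 7 lower, or 17.0% beside the 22.6% of all genes. Rbpj, the DNA-binding protein through which the pathway acts, measured 157 to 173 CPM in Control, 94.8 to 97.2 CPM in KO1 and 121 to 140 CPM in KO2, with no overlap among the groups. It was lower in KO1 (log2 fold change -0.78, adjusted p = 0.0042, edgeR) and less so in KO2 (-0.36, adjusted p = 0.0652, edgeR), and the clones differed by 0.42 (adjusted p = 0.0441, edgeR). The Rbpj call in KO1 remained when any 1 library was left out. The call in KO2 was lost without Control replicate 1 or 2 (adjusted p = 0.404 and 0.199), without KO1 replicate 2 (0.102) and without KO2 replicate 1 or 4 (0.105 and 0.101), and that between the clones without KO1 replicate 1, 2 or 3 (adjusted p = 0.133, 0.151 and 0.110, edgeR). Of the 15 genes of the nuclear complex and co-repressors, Cir1, a co-repressor that binds RBPJ, was the other one called between KO and Control (log2 fold change -0.96, adjusted p = 0.0541, edgeR). Ncor1 (-0.40, adjusted p = 0.196) and Ctbp1 (0.50, adjusted p = 0.202) were the most abundant ones not called by edgeR.

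Among 13 tested genes for ubiquitination and sorting of ligands and receptors, 4 fell and 9 were not called. Numb, an adaptor that opposes Notch by directing the receptor to endocytosis, fell by 0.72 on the log2 scale (adjusted p = 0.0190, edgeR), from 49.7 to 55.2 CPM in Control to 27.3 to 29.1 CPM in KO1 and 30.4 to 39.1 CPM in KO2. The Deltex ligase genes Dtx4 and Dtx3 fell by 1.01 and 0.67 (adjusted p = 0.0139 and 0.0377, edgeR). Itch, a ubiquitin ligase that acts on Notch and was named after its values were seen, fell by 0.60 (adjusted p = 0.0112, edgeR). Nedd4 and Mib1, the most abundant of this list, had log2 fold changes of -0.21 and 0.06 (adjusted p = 0.515 and 0.867, edgeR).

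Receptor cleavage had 1 call among 9 tested genes, Psen2, a catalytic subunit of gamma-secretase, which fell by 0.62 (adjusted p = 0.0647, edgeR). Furin and Adam10, the most abundant of this list, had 0.03 and 0.09 (adjusted p = 0.910 and 0.818, edgeR). Of the noncanonical ligands only Dlk2 was tested, and it rose by 1.70 (adjusted p = 0.0883, edgeR), from 6.89 to 9.04 CPM in Control to 19.4 to 41.4 CPM in KO1 and 9.10 to 30.2 CPM in KO2. Between KO and Control the edgeR fit called 0 of 5 genes for receptor glycosylation and 0 of 4 tested Hes, Hey and feedback genes, none with an unadjusted p below 0.05, and DESeq2 also called 0 of each. Their most abundant genes were Poglut1 (0.22, adjusted p = 0.458) and Pofut1 (0.09, adjusted p = 0.926) and, for the feedback genes, Hes6 (-0.58, adjusted p = 0.331) and Nrarp (0.03, adjusted p = 0.972, all edgeR). The clones differed in these lists. Pofut1, which adds O-fucose to Notch receptors, measured 48.3 to 51.6 CPM in Control, 75.4 to 88.0 CPM in KO1 and 23.1 to 47.6 CPM in KO2, with no overlap among the groups. Against Control, Pofut1 had 0.68 in KO1 and -0.60 in KO2 on the log2 scale, neither of which passed (adjusted p = 0.119 and 0.128, edgeR), and it was lower in KO2 than in KO1 (-1.28, adjusted p = 0.0132, edgeR). Hes7, a Hes repressor named after its values were seen, had 18 to 21 counts in Control, 8 to 40 in KO1 and 2 to 5 in KO2. Hes7 fell in KO2 (log2 fold change -2.15, adjusted p = 0.0142, edgeR), a call lost without Control replicate 2 (adjusted p = 0.114), and was lower in KO2 than in KO1 (-1.98, adjusted p = 0.0254, edgeR), a call lost without KO1 replicate 1 (adjusted p = 0.108). Nrarp, a feedback inhibitor that Notch itself induces, was higher in KO2 than in KO1 by 0.94 (adjusted p = 0.0724, edgeR), and this call was lost without KO1 replicate 1, 2 or 3 or KO2 replicate 1 or 4 (adjusted p = 0.115 to 0.204).

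All 8 calls between KO and Control were lost when either Control library was left out (0 called by edgeR, with 4 and 6 genes at an unadjusted p below 0.05), while DESeq2 with all libraries called 10.

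In KO1 alone 13 of the 47 genes were called, 3 higher and 10 lower, or 27.7% beside the 31.6% of all genes. In KO2 alone 12 were called, all of them lower, or 25.5% beside the 31.4% of all genes called and 15% called lower. Without Control replicate 1 or 2 these counts went to 4 and 5 in KO1 and to 2 and 2 in KO2 (edgeR). The 3 that were higher in KO1 were Dlk2, Kat2a and Neurl1a, the last 2 named after their values were seen. Neurl1a, a Neuralized ligase gene, measured 18.7 to 27.7 CPM in KO1 against 3.17 to 3.89 CPM in Control (log2 fold change 2.67, adjusted p = 0.0046, edgeR). The median log2 fold change of the 47 genes was -0.19 in KO1 and -0.26 in KO2, against 0.02 and 0.03 over all genes.

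**Figure D4:**
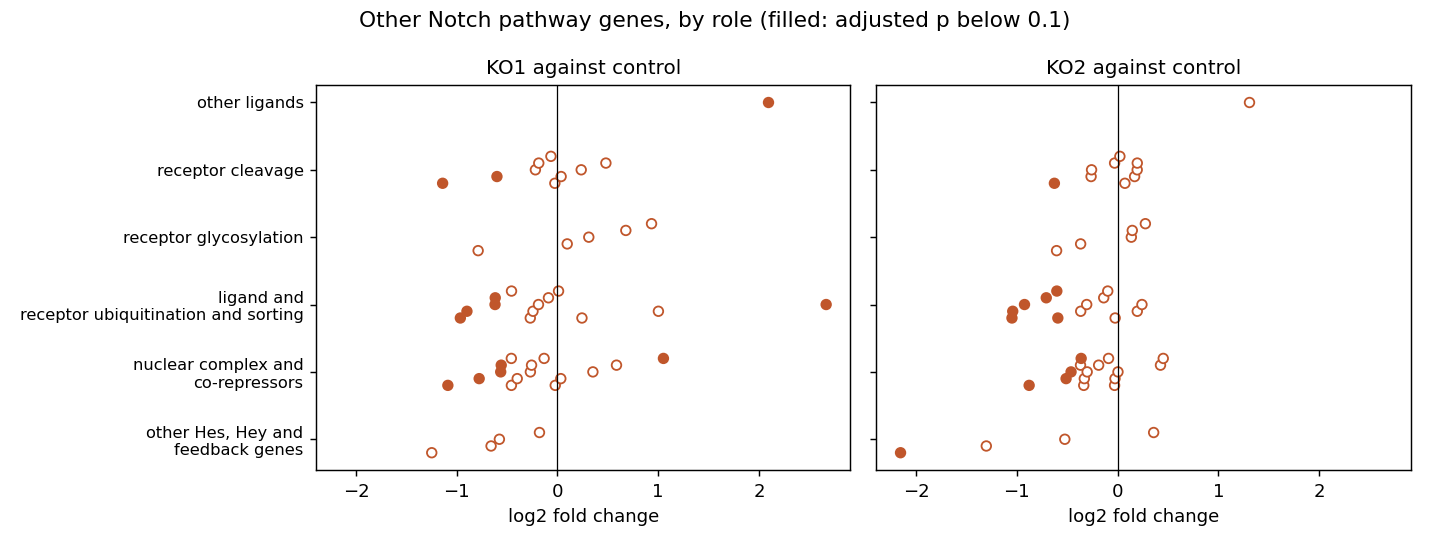
Log2 fold change of the tested genes of the other pathway lists, 1 row to each list, for KO1 and KO2 against Control. Filled points have an adjusted p below 0.1 in the edgeR fit, 13 in KO1 and 12 in KO2. Points of 1 row are set apart vertically so that they can be seen.

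In ChIRP, DNA is recovered from fixed cells through an RNA that lies on it, which is captured by biotinylated antisense oligos. Here 14 MaTAR25 oligos were used as a total pool, an odd pool and an even pool in 4T1 cells and as a total pool in NDL cells, and peaks were called over pooled replicates against a pulldown of Ppib RNA. The lists therefore allow no replicate test, and scores are compared within a list only. In the total pool of 4T1 cells 5 of the 10 genes had a peak over the gene body (Notch1, Notch2, Notch3, Notch4 and Jag1), beside 51.2% of the genes tested for expression. The same 5 genes had one in NDL cells, beside 50.3%. The odd pool gave 4 of 10 beside 44.5%, and the even pool 4 of 10 beside 44.9%. Jag2 had no peak in any list, either over the gene or with its promoter as the nearest.

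Values of the even pool on chromosomes 2 and 3 carry a limit. Chromosome 2 holds 8877 of its peaks and chromosome 3 holds 0, against 5666 and 4659 in the total pool. Of 11 even-pool peaks at Notch1, Jag1 and Dll4 on chromosome 2, 5 lie on a total-pool peak there. Of the other 6, 5 lie at positions where the total pool has a peak on chromosome 3 instead. The peak with the highest even-pool score at Jag1 (345.0) and the only one at Dll4 (42.6) are among these 5. Both are drawn in the plot of peaks but are not used further. Notch2 and Hey1 on chromosome 3 have no even-pool value. The 4 genes counted for the even pool were Notch3, Notch4, Jag1 and Dll4, and Dll4 was counted by its peak of 42.6 alone.

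Sequences of 3 peaks are shown, each as 300 bases of the plus strand (GRCm38) around its longest exact match to a MaTAR25 oligo. They are the peaks of Hes1, which had a high score in the total pool and in NDL cells, of Jag1, which was called in both clones, and of Hey1, which lay closest to a gene start. Capitals mark the bases that match, and the same bases are in capitals in the oligo, which may match on the other strand. The windows are chr16:30084889-30085188 for Hes1, chr3:8667914-8668213 for Hey1 and chr2:137097902-137098201 for Jag1.
Hes1 ChIRP peak: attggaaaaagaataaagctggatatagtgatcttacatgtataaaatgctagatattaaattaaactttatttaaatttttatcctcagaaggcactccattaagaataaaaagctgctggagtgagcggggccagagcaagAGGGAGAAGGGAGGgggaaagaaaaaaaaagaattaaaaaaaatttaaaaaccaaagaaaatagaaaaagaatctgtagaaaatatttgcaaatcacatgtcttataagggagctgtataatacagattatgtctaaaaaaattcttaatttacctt
MaTAR25-oligo12: aatAGGGAGAAGGGAGGctc
Hey1 ChIRP peak: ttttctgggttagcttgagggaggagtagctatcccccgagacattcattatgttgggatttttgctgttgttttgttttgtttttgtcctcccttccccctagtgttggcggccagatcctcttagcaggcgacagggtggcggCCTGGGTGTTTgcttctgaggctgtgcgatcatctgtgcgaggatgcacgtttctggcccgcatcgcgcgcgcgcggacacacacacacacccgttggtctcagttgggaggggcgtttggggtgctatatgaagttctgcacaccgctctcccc
MaTAR25-oligo5: gaaaggAAACACCCAGGtca
Jag1 ChIRP peak: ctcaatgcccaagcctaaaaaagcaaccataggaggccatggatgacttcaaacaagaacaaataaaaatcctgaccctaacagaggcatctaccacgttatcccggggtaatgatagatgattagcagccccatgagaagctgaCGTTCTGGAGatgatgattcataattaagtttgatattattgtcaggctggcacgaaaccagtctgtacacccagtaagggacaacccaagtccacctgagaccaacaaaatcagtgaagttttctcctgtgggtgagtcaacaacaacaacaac
MaTAR25-oligo8: cttgCTCCAGAACGacagcg

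Notch4 had the highest total-pool score of the 10 genes, over the gene body. The score of 588.7 ranked 514 of 76806 peaks, in the top 0.669%. The odd pool (score 772.6) and the even pool (score 266.2) had a peak at the same place, whereas the only Notch4 peak of NDL cells lay elsewhere in the gene with a score of 16.2. Direct pairing of an oligo with the genomic DNA was not tested as a source of any of these peaks.

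The Hes1 peak (chr16:30084735-30085359) lies 20.7 kb from the gene start, downstream of the gene and outside annotated genes. It had a score of 297.9 in the total pool (top 3.97%), 278.7 in the even pool and 272.3 in NDL cells, and the odd pool had none there. Its match to oligo 12 is 14 bases long, a length that 3.93% of total-pool peaks reach with some MaTAR25 oligo. At Hey1 a peak 0.891 kb before the start (chr3:8667834-8668460) had 104.8 in the total pool, 301.4 in the odd pool and 84.8 in NDL cells, with a match of 11 bases to oligo 5.

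Jag1 had its highest total-pool score, 170.7, in intron 5 of 25 (chr2:137097846-137098471), where the even pool (146.9) and NDL cells (132.1) also had a peak, with a match of 10 bases that 63.5% of total-pool peaks reach. A further peak 2.65 kb before the Jag1 start (chr2:137119044-137119543) was in the total pool (104.8), the odd pool (244.5) and NDL cells (84.8). Notch2 had its highest score, 222.5, in intron 11 of 33, also present in NDL cells (150.9). At Notch1 the highest was 143.2, at 9.50 kb before the start. Notch3 had the only region found in all 4 lists, 4.42 kb before its start, with scores of 50.5 in NDL cells and 67.9 in the total pool. The even pool has 0 peaks on chromosome 3, so regions of Notch2 and Hey1 could be in 3 lists at most. The Hey1 peak and a region in Notch2 were in these 3. Dll4 had no total-pool peak, and Dll1 had 1, with 56.5, at 64.0 kb from its start.

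**Figure D5:**
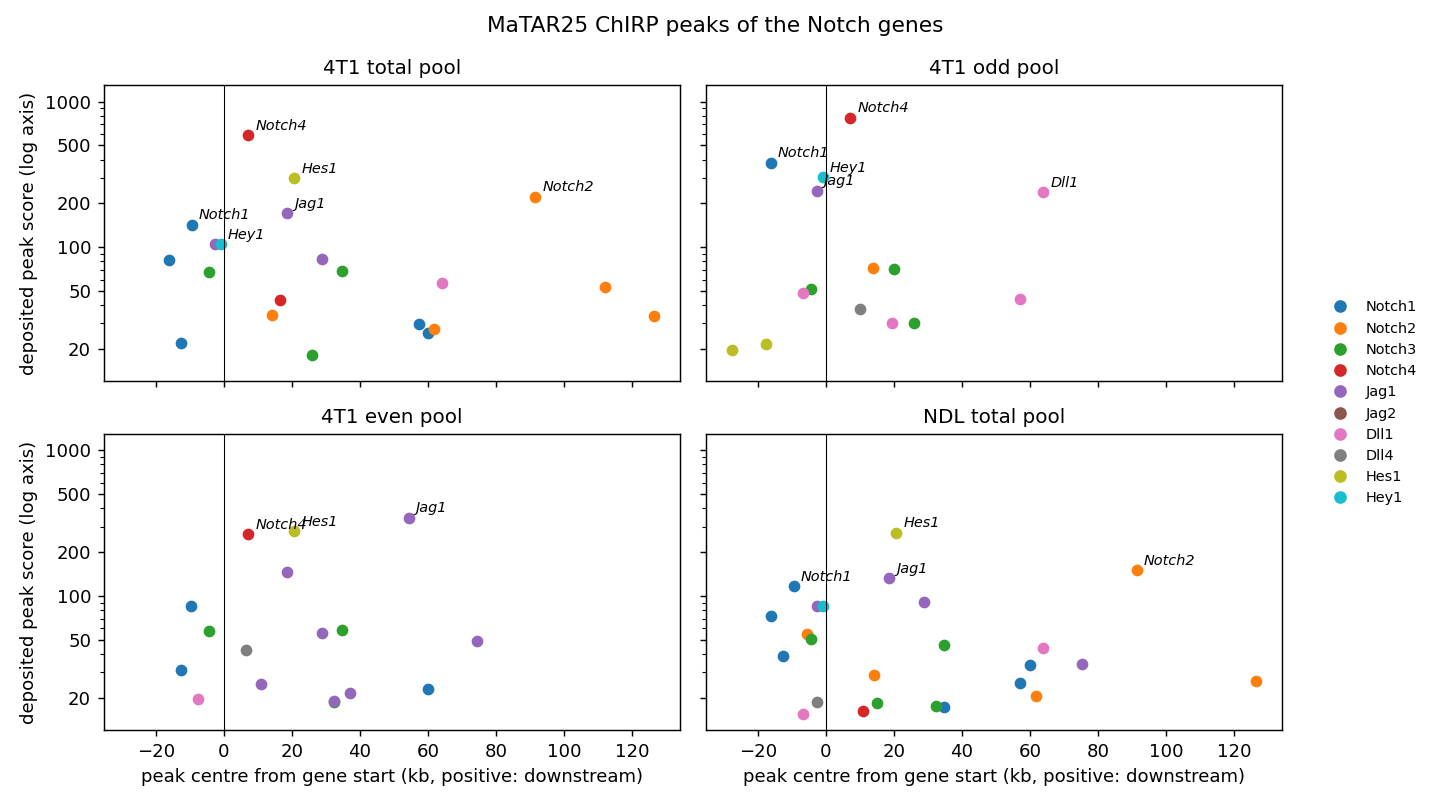
Peaks over the gene body of the 10 genes, within 5 kb of it, or with their promoter as the nearest, in each of the 4 lists. The horizontal axis is the distance of the peak centre from the gene start in kb and the vertical axis the deposited peak score on a log scale, and a gene is named at its highest peak where that has a score of at least 100. Notch4 has the highest point in the total and odd pools of 4T1 cells and none above 16.2 in NDL cells. In the even pool the highest point, Jag1 at 345.0, and the Dll4 point at 42.6 carry the limit given for chromosomes 2 and 3.

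In the table of promoters from RefSeq (GRCm38), 8 of the 10 genes had an entry, 9 in all. The target genes Hes1 and Hey1 had none, so their promoters were not searched for either motif. GGTGG or CCACC, counted on both strands, was in the 250 bases before the start of 54.3% of 32851 promoters, and in 8 of these 9 entries, with 1 or 2 copies each and 0 at Notch3. TGGGAA or TTCCCA, the core that RBPJ binds, was in 21.6% of all promoters and in 0 of the 9 entries. The absence says only that these letters are not in this window.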

How the data were processed

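RNA-seq values were deposited as whole-number counts per gene, 1 file to each library. The authors aligned single-end reads by STAR to GRCm38, and HTSeq assigned them to GENCODE vM5 genes without normalization. Of the counts, 33.9 to 37.0% fell in no gene and stayed out of library sizes. For ChIRP-seq, annotated HOMER peaks were deposited with a score each. The authors mapped with Bowtie2 and called peaks on pooled replicates against the Ppib pulldown, and how the score is scaled is not stated.

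Counts were fitted in R 4.3.3 with edgeR 4.0.16 (TMM, filterByExpr, quasi-likelihood test, Benjamini-Hochberg adjustment over 15023 genes, threshold 0.1). KO against Control used KO1 and KO2 as 1 group, and the other comparisons a 3-group fit. DESeq2, the test of the study, was an alternative, as were RLE factors, other filters, a threshold of 0.05, the replicate number as a block and leaving out each library. CPM used TMM library sizes, and exon lengths came from GENCODE vM21, a later release than the one counted on. Exact permutation tests were two-sided, on log2(CPM + 1). The fits were tested on simulated data. All 10 genes were named, in other lists the called genes of at least 1 CPM with the largest changes, up to 3 in each direction, and the 2 most abundant uncalled ones. The genes and lists were chosen with earlier results of these data known. Columns of annotation in the peak lists gave introns and nearest promoters. ChIRP input libraries were not used here. The sequence and position of the Notch4 peak are not reported here.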

Additional observations from a re-analysis of the deposited data

Results flagged for a closer look

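Among 20 sets of KO libraries (each of the 10 genes, in KO2 alone and in KO1 and KO2 together), 3 held a library far from the others by Dixon's ratio of the gap to the range of log2(CPM + 1), where chance flags about 1 in 20. For Notch1, KO2 replicate 2 lay lowest of the 7 KO libraries (7.08 CPM, ratio 0.732, critical value 0.568). For Notch3, KO2 replicate 3 lay highest of the 4 KO2 libraries (13.9 CPM, ratio 0.985, critical value 0.829). For Notch4, KO2 replicate 2 lay lowest of the 4 (0.126 CPM, ratio 0.927), which is 3 counts.

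The effects of KO1 and KO2 differed in the test of the difference itself for 3 genes by edgeR's quasi-likelihood test. KO2 minus KO1 was 5.03 on the log2 scale for Jag2 (adjusted p = 0.0144, KO2 higher in 4 of 4 libraries), 3.99 for Dll4 (adjusted p = 0.0087, 4 of 4) and 0.89 for Hes1 (adjusted p = 0.0437, 4 of 4). Each clone is 1 line, so a difference between clones and a difference between the deletions they carry cannot be told apart.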

How the results depend on the processing

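The Jag1 call against Control, for both clones pooled and for each clone, remained under each alternative run, with adjusted p up to 0.0733 (edgeR). Other calls changed as follows. With a 3-group fit 3 genes were called between KO and Control (Hes1, Jag1 and Jag2), and with only the groups compared 5 were called in KO1 (adding Dll4 and Notch2). Leaving out 1 library gave 1 gene in KO against Control, 2 to 4 in KO1, 1 to 3 in KO2 and 2 to 5 between the clones. Notch3 between the clones went from 0.0042 to between -6.86, without KO2 replicate 3, and 1.29, without KO1 replicate 2. Of the other pathway genes, 4 were called at a threshold of 0.05, 4 without a filter, 5 with the replicate block, and 0 to 11 when 1 library was left out. With scores of at least 100, 3 of the 10 genes had a ChIRP peak over the gene body in the total pool, beside 23.1% of the genes tested, and 2 in NDL cells, beside 20.1%.

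Libraries with the same replicate number did not deviate together (7 pairs, correlations -0.15 to 0.04), so the numbers do not pair the samples. With the replicate block the calls of the 10 genes stayed at 1, 3 and 2 against Control and went from 3 to 2 between the clones, where Hes1 had 0.74 (adjusted p = 0.137, edgeR). The block also ended the Rbpj calls in KO2 and between the clones (adjusted p = 0.164 and 0.106, edgeR) and those of Hes7 and Nrarp between the clones (0.101 and 0.172). Without a filter Rbpj was not called in KO2 (0.182) or between the clones (0.134), nor Nrarp between the clones (0.115), and with only the groups compared Rbpj was not called in KO2 (0.142). The cause of these changes was not tested. With 2 Control libraries the exact test cannot go below 0.0278, and in KO1 or KO2 alone not below 0.1 and 0.0667. Notch4 and Hey1 were limited by depth, and ChIRP lists by pooled replicates.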
